A study of Mus musculus with 6 samples.

Results

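The transcripts described here come from 42 genes of DNA replication and mitosis, namely cyclins and their kinases, helicase and nucleotide synthesis genes, and genes of the spindle and its checkpoint. They were chosen by name and sorted by the phase in which their products act, with 12 genes in G1/S, 11 in S and 19 in G2/M. All 42 were found by Entrez ID among the 36528 gene IDs of the deposited tables, and all 42 passed the filter on low counts that kept 13353 genes for testing. RNA was sequenced from mouse HOXB-8 cells, a bone marrow line of myeloid progenitors that an immortalising homeobox factor keeps dividing and that the extraction notes also call iMACs. The 3 Parental libraries are Irf2 wild type and carry a control guide RNA named Luc. The 3 IRF2_KO libraries carry the guide RNA named Irf2 gRNA2, so all knockout libraries rest on 1 guide sequence, and the cells of both groups share the HOXB8-driven growth. Age, sex, strain and treatment are not given in the labels. The notes give n = 3 without saying that the libraries of a group were grown as separate cultures, so the p-values given here reflect variation between libraries and perhaps only technical variation.

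A dividing cell passes from G1 into S phase when D-type cyclins with CDK4 or CDK6, and then E-type cyclins with CDK2, release E2F factors from the retinoblastoma protein family. Origins of replication are licensed by CDC6, CDT1 and the MCM2-7 helicase ring, and are fired once GINS joins that ring. CDK1 with A-type and B-type cyclins then drives mitosis, in which Aurora and Polo kinases build the spindle and the checkpoint proteins BUB1 and BUBR1 hold back the anaphase-promoting complex. Transcription of S phase genes is known to depend on E2F sites, and that of G2/M genes on CCAAT boxes and on the cell cycle genes homology region (CHR), read by NF-Y and by the MuvB complexes with B-MYB and FOXM1. IRF2 binds the interferon-stimulated response element (ISRE).

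Total counts lay between 29070160 and 39925038 per library, so 3 counts correspond to 0.0751 to 0.103 CPM (the count scaled to library size by the TMM method). Irf2 itself had 41.1, 42.4 and 41.1 CPM in the Parental libraries and 40.3, 37.0 and 40.1 CPM in the IRF2_KO libraries and did not pass the test (log2 fold change -0.08, SE 0.05), and counts per gene do not show an edit at the guide's site, so its level does not check the labels. Of the markers of myeloid progenitors, Prtn3, Ctsg, Elane, Mpo, Myb and Hoxb8 were abundant, whereas Cd34 had at most 2 reads in any library. Of 8 tested, 4 were lower in IRF2_KO and 1 higher (Ctsg, log2 fold change 0.13), beside 23.6% of all genes in each direction. The lower ones were Kit (-3.26), Elane (-1.69), Mpo (-0.52) and Myb (-0.44). Prtn3, Hoxb8 and Cebpe were not called. The higher count was 0 without Parental 1, Parental 2 or IRF2_KO 3, 2 without IRF2_KO 1, and 3 with offsets for the length trend described next. Of 10 tested macrophage markers, 9 were higher in IRF2_KO, and the summed level of all 17 on that list was 568 to 578 CPM in Parental and 1675 to 1679 CPM in IRF2_KO. Within that list C1qb had no read, and C1qa, C1qc and Vsig4 had at most 1 read in any library. Of 11 neutrophil markers 6 were higher and 2 lower, and of 5 tested dendritic cell markers 4 were higher and 1 lower. The 6 lymphocyte markers summed to at most 0.126 CPM, and those of the erythroid and stromal lists to at most 1.63 and 1.78 CPM. The part of these marker differences in the results that follow was not tested.

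The IRF2_KO libraries differed among themselves with gene length, as read from the ratio of the deposited count to the deposited RPKM and expressed relative to the median gene. Over the 42 genes, the log2 difference of IRF2_KO 2 from the mean of the other IRF2_KO libraries had a Pearson correlation of -0.72 with log2 length, and that of IRF2_KO 1 had one of 0.65, while IRF2_KO 3 gave 0.15 and the Parental libraries -0.46 to 0.28. These points share their libraries and are a description only. The 14 longest genes had a median difference of -0.08 in IRF2_KO 2, and the 14 shortest one of 0.09. Among the long genes Mki67 and Cenpe stood at -0.39 and -0.24 in that library, and among the short ones Pcna and Cdc20 stood at 0.28 and 0.21, whereas the shortest, Ube2c, stood at 0.04. Between the groups the trend was smaller: the median log2 fold change of all tested genes ran from -0.03 in the shortest of 4 length classes to 0.02 in the longest.

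**Figure D1:**
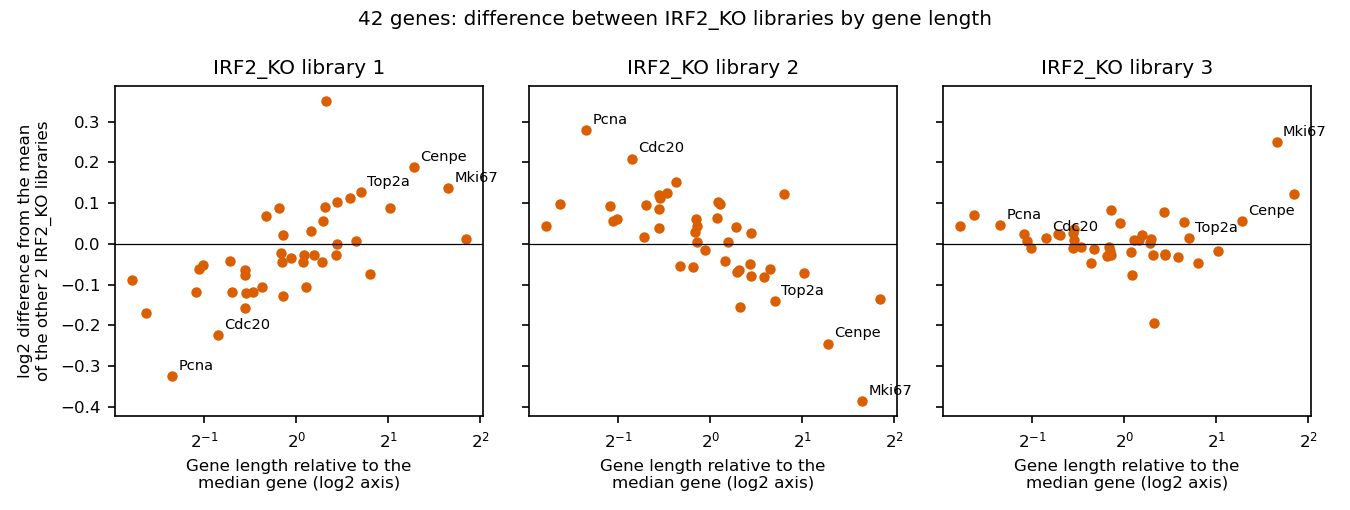
Difference of each IRF2_KO library from the mean of the other 2 IRF2_KO libraries (log2 CPM, y axis) against gene length relative to the median gene (log2 axis) for the 42 genes, 1 point per gene. Points fall with length in IRF2_KO 2 (correlation -0.72) and climb with it in IRF2_KO 1 (0.65).

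The 5 promoters printed here are shown because their genes carry the splits within families reported further on: Mcm5 and Mcm6 encode subunits of the same helicase ring, Bub1 and Bub1b encode related checkpoint proteins, and E2f8 is, with Bub1b, a gene whose window holds an ISRE. Each run gives the 250 bases before the start in RefSeq's promoter table on GRCm38.p6, 5′ to 3′ on the gene's strand. For Mcm5 and Bub1b that start lies inside the gene bounds given further on, so the window reaches into the annotated gene. The E2f8 window lies wholly inside the bounds of its gene, so all its matches, the ISRE among them, are within the annotated gene. Capitals mark matches on either strand to a CCAAT box (CCAAT), a CHR (TTTGAA, or TTCGAA as its variant), an E2F site or an ISRE. The E2F letters searched were TTCCCGC and TTGGCGC and TTCGCGC and TTGCCGC, and the ISRE letters were GAAA followed after any 2 bases by GAAA.
Mcm5, chr8:75109259-75109508, plus strand: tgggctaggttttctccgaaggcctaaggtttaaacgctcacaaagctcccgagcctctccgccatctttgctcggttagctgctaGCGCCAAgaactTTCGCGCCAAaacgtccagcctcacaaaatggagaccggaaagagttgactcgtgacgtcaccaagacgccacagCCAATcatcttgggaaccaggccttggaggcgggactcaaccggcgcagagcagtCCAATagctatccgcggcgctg
Mcm6, chr1:128359706-128359955, minus strand: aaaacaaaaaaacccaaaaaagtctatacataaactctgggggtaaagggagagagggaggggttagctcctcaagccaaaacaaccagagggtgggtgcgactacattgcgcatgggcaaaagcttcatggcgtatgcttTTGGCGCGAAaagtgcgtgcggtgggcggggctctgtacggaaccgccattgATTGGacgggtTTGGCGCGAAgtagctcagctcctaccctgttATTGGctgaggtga
Bub1, chr2:127831860-127832109, minus strand: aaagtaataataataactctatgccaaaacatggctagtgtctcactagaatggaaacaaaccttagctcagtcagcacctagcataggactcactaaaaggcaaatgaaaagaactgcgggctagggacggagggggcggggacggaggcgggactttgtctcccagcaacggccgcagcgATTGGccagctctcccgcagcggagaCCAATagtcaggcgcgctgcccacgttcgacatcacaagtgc
Bub1b, chr2:118597961-118598210, plus strand: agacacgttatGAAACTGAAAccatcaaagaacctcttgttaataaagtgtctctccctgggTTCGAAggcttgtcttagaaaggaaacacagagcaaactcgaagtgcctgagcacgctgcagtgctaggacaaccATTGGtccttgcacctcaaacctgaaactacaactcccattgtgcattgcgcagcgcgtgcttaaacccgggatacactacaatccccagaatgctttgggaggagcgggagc
E2f8, chr7:48881597-48881846, minus strand: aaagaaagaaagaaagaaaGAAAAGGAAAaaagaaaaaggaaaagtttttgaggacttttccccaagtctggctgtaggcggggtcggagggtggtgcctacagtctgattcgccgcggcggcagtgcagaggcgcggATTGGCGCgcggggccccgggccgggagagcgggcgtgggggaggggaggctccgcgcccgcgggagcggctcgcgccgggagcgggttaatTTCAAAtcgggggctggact
In the Mcm5 window the capitals are 3 E2F matches, of which 2 overlap, and 2 CCAAT boxes. The Mcm6 window has 4 E2F matches in 2 overlapping pairs, the nearer pair 37 to 46 bases before the start, and 2 CCAAT boxes. In Bub1 the capitals are 2 CCAAT boxes, 38 to 42 and 64 to 68 bases before the start, and no letters of the other motifs were found. In Bub1b they are an ISRE 230 to 239 bases before the start, a CHR and a CCAAT box. In E2f8 they are an ISRE 222 to 231 bases before the start within an A-rich run, a CCAAT box that overlaps an E2F match, and a CHR 15 to 20 bases before the start.

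The promoter table held 33 of the 42 genes, and Ccnd1, Ccnd2, Ccne2, Mcm4, Gins2, Ccna2, Foxm1, Aurkb and Kif20a did not match. A CCAAT box was found in 14 of 15 G2/M genes (93.3%), 8 of 9 S genes and 3 of 9 G1/S genes, against 37.5% of 27025 genes with a promoter in the table. The CHR was found in 8 of 15 G2/M genes (53.3%), 2 of 9 S genes and 1 of 9 G1/S genes, against 19.6% of all. E2F matches were found in 5 of 9 S genes, 3 of 9 G1/S genes and 3 of 15 G2/M genes, against 9.01% of all. The ISRE was found in 2 of the 33 genes, Bub1b and E2f8, against 3.46% of all. Such matches describe letters in a window, not bound sites.

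Setting IRF2_KO beside Parental addresses which of these transcripts differ in cells where Irf2 was targeted. Of the 42 genes, 5 were higher in IRF2_KO (Ccnd2, Ccnd3, Mcm6, Rrm2 and Bub1) and 10 were lower, that is 35.7% called, beside 47.2% of all tested genes. The rises ran from 1.15-fold (Mcm6) to 1.58-fold (Ccnd2), and the falls from 8.98% (Kif20a) to 18.4% (Gins2). The other 27 did not pass the test (edgeR quasi-likelihood test, Benjamini-Hochberg adjusted p under 0.05 over all genes). Of all tested genes, 23.6% were called higher and 23.6% called lower, beside 11.9% and 23.8% of the 42. The median log2 fold change of the 42 genes was -0.07, beside -0.01 for all tested genes, and 33 of them (78.6%) lay within 0.2 of 0 on the log2 scale, beside 53.6% of all. A call with an absolute log2 fold change of at least 0.5 was made for 2 of the 42 (4.76%), Ccnd2 and Bub1, beside 14.5% of all. Groups did not overlap in 6 genes that were higher in IRF2_KO (14.3%, beside 26.4% of all) and in 14 that were lower (33.3%, beside 27.6%). In bulk RNA, fewer cells in a phase and less RNA per cell cannot be told apart.

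The count of lower genes depended on scaling, on the filter and on which libraries were kept. Leaving out single libraries gave 13 to 24 genes called in either direction, and no filter gave 20, beside the 15 called here. The share of all genes called is not given here for the settings in this paragraph. With library size alone, 5 were higher and 19 lower, while the median of all genes moved by under 0.1 on the log2 scale, to -0.04. Without IRF2_KO 2, 8 were higher and 16 lower. With offsets that remove each library's trend with length, an alternative added after the data were seen, 6 were higher and 10 lower, and the 15 genes called here were among them.

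**Figure D2:**
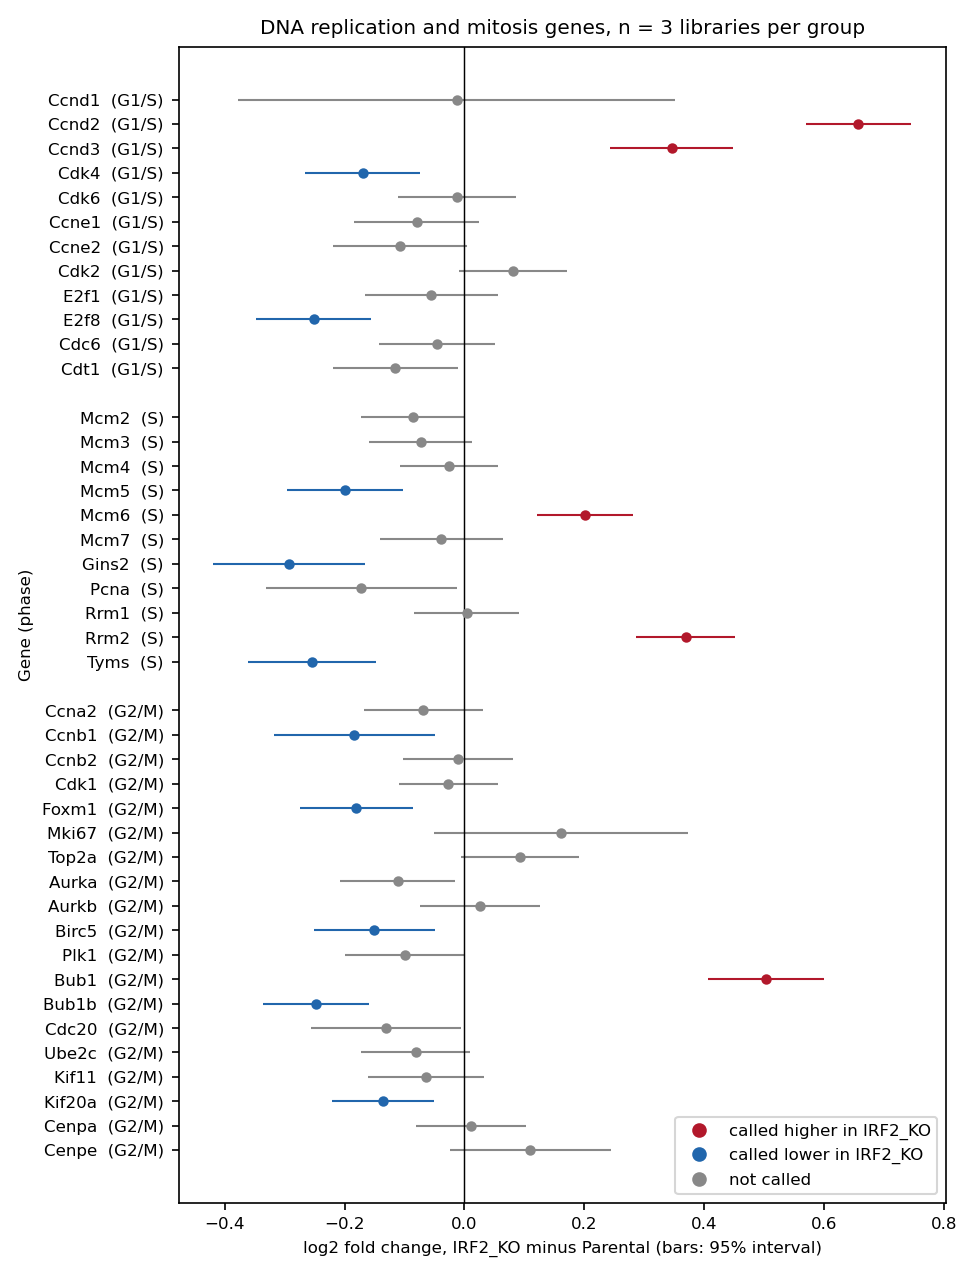
Log2 fold change of each of the 42 genes in IRF2_KO against Parental (x axis) with its 95% interval, by phase, 3 libraries per group. Ccnd2 (0.66) and Bub1 (0.50) stand farthest to the right, and 33 of the 42 points lie within 0.2 of 0.

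Summed over the genes of a phase, the mean level differed by under 4% between the groups. The 12 G1/S genes summed to 2054, 2111 and 2090.4 CPM in Parental and to 2137, 2151 and 2199.6 CPM in IRF2_KO, the mean being 3.71% higher, and the groups did not overlap. For the 11 S genes the mean was 1.90% higher and for the 19 G2/M genes 0.990% higher, with groups that overlapped in both. IRF2_KO 2 had the lowest G2/M sum, 3552 CPM, beside 3677 and 3680.3 CPM in the other IRF2_KO libraries. Summed as deposited RPKM, the G1/S genes had 662, 683 and 691 in Parental and 651, 693 and 680 in IRF2_KO, and the groups overlapped. For the S genes these RPKM sums were 1089, 1106 and 1115 in Parental and 1117, 1166 and 1142 in IRF2_KO, without overlap. The G2/M groups overlapped on this scale too. Sums on either scale are weighted by the abundant genes, and no test was made on them. Estimates were below 0 in 9 of the 12 G1/S genes, 8 of the 11 S genes and 13 of the 19 G2/M genes. Among those above 0, the mean of Ccnd2 was 212 CPM in Parental and 335 CPM in IRF2_KO, and that of Rrm2 397 and 513 CPM.

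**Figure D3:**
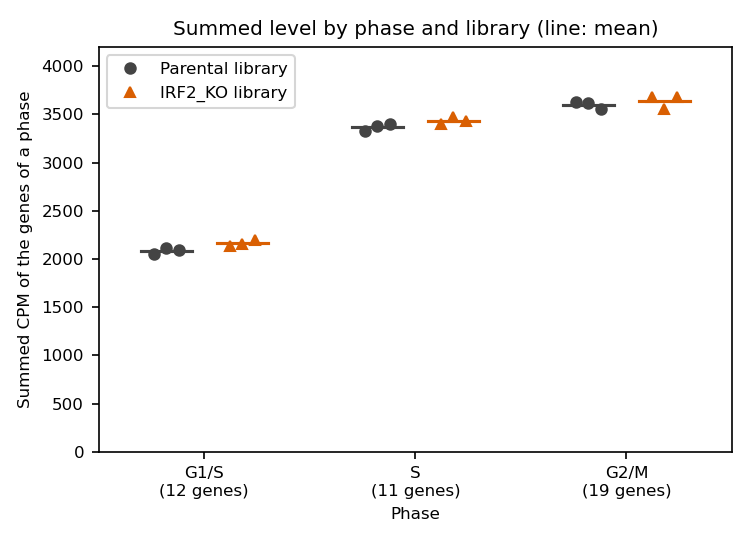
Summed CPM (y axis, from 0) of the G1/S, S and G2/M genes in each library, with a line at the mean of 3 libraries. The G2/M sums run from 3552 to 3680.3 CPM over all 6 libraries and overlap between the groups.

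Per length, on the scale of the deposited RPKM, the genes of this set ranged widely. The highest means in Parental were those of Cdk4 (295 RPKM), Mcm6 (188), Rrm2 (177) and Ube2c (156), and 40 of the 42 reached 10 RPKM. The exceptions were Tyms (9.74) and Ccnd1 (0.518). The deposited counts hold only reads that align uniquely, so reads that match a near-identical pseudogene equally well are left out. In the GENCODE transcripts, stretches at least 95% identical to another gene over at least 100 bases covered 72.8% of the Mcm7 transcript, 52.0% of Ccnb1, 51.5% of Pcna, 41.6% of Ccnd3 and 33.0% of Cdc6. For Rrm2 it was 27.9%, over 2 pseudogenes, and the copies of the other 5 were mainly single processed pseudogenes. Such a stretch need not lose all its reads, and how many were left out was not measured. The levels of these 6 genes are therefore uncertain.

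Among the G1/S genes, the D-type cyclins, which carry growth factor signals to CDK4 and CDK6, were split. Ccnd2 (chr6:127125162-127152188, from RefSeq on GRCm38.p6 like all gene positions here) had 211, 213 and 213 CPM in the Parental libraries and 349, 324 and 332 CPM in the IRF2_KO libraries. All 3 IRF2_KO libraries lay above all Parental libraries, and Ccnd2 was 1.58-fold higher (log2 fold change 0.66, SE 0.04, edgeR adjusted p = 4.85e-10), the largest change of the 42 genes. Ccnd3 (chr17:47505051-47599689) had 169, 179 and 179.5 CPM in the Parental libraries and 213, 239 and 218 CPM in the IRF2_KO libraries, again without overlap (log2 fold change 0.35, SE 0.05, edgeR adjusted p = 1.43e-05). Ccnd1 (chr7:144929931-144939831), the D-type cyclin of many adherent tissues, was nearly silent, with 2.12, 2.43 and 1.86 CPM in the Parental libraries and 2.55, 1.92 and 1.87 CPM in the IRF2_KO libraries. Its groups overlapped, and its interval of -0.38 to 0.35 on the log2 scale is the widest of the set. Per length, Ccnd3 stayed the most abundant of the 3 (68.6 and 87.7 RPKM in Parental and IRF2_KO), followed by Ccnd2 (31.6 and 50.2 RPKM).

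The kinases that these cyclins activate did not rise with them. Cdk4 (chr10:127063535-127067288) had 439, 461 and 473 CPM in the Parental libraries and 385, 424 and 411 CPM in the IRF2_KO libraries, and all IRF2_KO libraries lay below the Parental ones. The difference of 11.1% passed the test (log2 fold change -0.17, SE 0.05, edgeR adjusted p = 0.00486). Exons of Cdk4 share 19.7% of their bases with Tspan31 on the opposite strand, whose log2 fold change was 0.02 and did not pass, and whether counting used strand is not given in the sources used here. Cdk6 had 550.0, 563 and 524 CPM in the Parental libraries and 543, 508 and 572 CPM in the IRF2_KO libraries, with overlapping groups (log2 fold change -0.01, 95% interval -0.11 to 0.09).

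For the E-type cyclins, which complete the passage into S phase with CDK2, no gene was called. Ccne1 and Ccne2 had log2 fold changes of -0.08 (95% interval -0.18 to 0.02) and -0.11 (-0.22 to 0.00), and Cdk2 one of 0.08 (-0.01 to 0.17). Their Parental and IRF2_KO libraries did not overlap, yet the gaps were small. With the length offsets Cdk2 was called higher (0.11, adjusted p = 0.0237, beside 0.0946 to 1 under the other alternatives).

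The activator E2f1, a factor that turns on S phase genes, had 68.2, 74.2 and 78.3 CPM in the Parental libraries and 69.6, 70.3 and 72.5 CPM in the IRF2_KO libraries. Its groups overlapped and it was not called (log2 fold change -0.06, 95% interval -0.17 to 0.06). E2f8 (chr7:48866429-48882073), a repressing E2F that limits expression of E2F targets after S phase begins, had 117, 122 and 115 CPM in the Parental libraries and 97.8, 96.8 and 103 CPM in the IRF2_KO libraries. Its groups were apart, and it was 16.0% lower (log2 fold change -0.25, SE 0.05, edgeR adjusted p = 0.000185). Exons of E2f8 share 11.2% of their bases with Gm2788, an uncharacterised transcript on the opposite strand. The licensing factors Cdc6 and Cdt1 were not called, with log2 fold changes of -0.05 (-0.14 to 0.05) and -0.12 (-0.22 to -0.01). Cdt1 was called lower with library size alone, with no filter, without Parental 1 and without IRF2_KO 2 (adjusted p from 0.0117 to 1 over all alternatives).

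**Figure D4:**
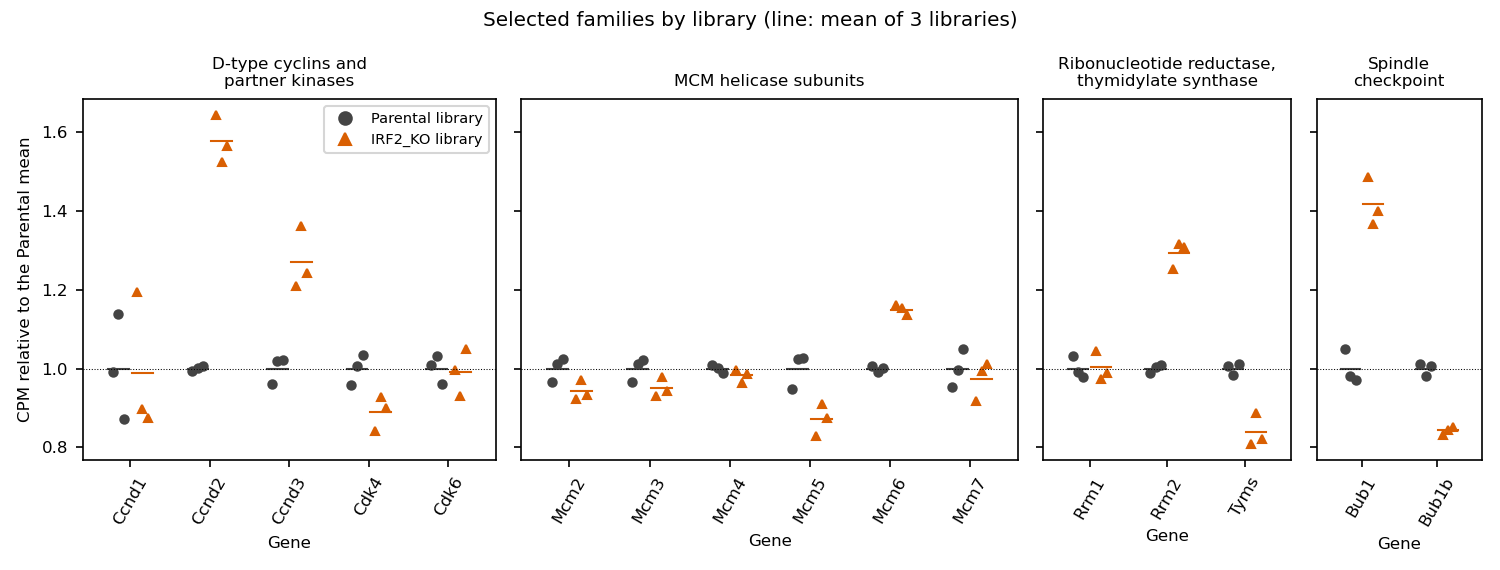
CPM of each library divided by the Parental mean of the gene (y axis) for D-type cyclins with their kinases, MCM subunits, nucleotide synthesis genes and the Bub1 pair, with a line at each group mean of 3 libraries. Ccnd2, Ccnd3, Mcm6, Rrm2 and Bub1 lie above 1 in all IRF2_KO libraries, and Cdk4, Mcm5, Tyms and Bub1b lie below 1.

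Among the S phase genes, the subunits of the MCM2-7 ring, which unwinds DNA and holds 1 copy of each, did not move as a block. Mcm6 (chr1:128331575-128359705) had 566, 557 and 563 CPM in the Parental libraries and 653, 647 and 638 CPM in the IRF2_KO libraries. Every IRF2_KO library was above every Parental library, by 1.15-fold on average (log2 fold change 0.20, SE 0.04, edgeR adjusted p = 0.000271). Mcm5 (chr8:75109468-75128439) had 467, 506 and 507 CPM in the Parental libraries and 409, 449 and 431 CPM in the IRF2_KO libraries. It was lower without overlap, by 12.9% (log2 fold change -0.20, SE 0.05, edgeR adjusted p = 0.00163), so the subunits whose promoters are printed above went opposite ways. The other measured subunits were not called, and in each of them the groups overlapped. Mcm2 had 342, 359 and 363 CPM in the Parental libraries and 327, 344 and 331 CPM in the IRF2_KO libraries (log2 fold change -0.09). Mcm3 had 387, 406 and 410.3 CPM in the Parental libraries and 374, 392 and 378 CPM in the IRF2_KO libraries (-0.07). In both, IRF2_KO 2 was the highest of its group and reached into the Parental range. Mcm4 had 294, 293 and 289 CPM in the Parental libraries and 291, 281 and 288 CPM in the IRF2_KO libraries (-0.03). Mcm7 had 171, 179 and 189 CPM in the Parental libraries and 165, 178 and 182 CPM in the IRF2_KO libraries (-0.04). The 95% intervals of these 4 subunits reached from -0.17 (Mcm2) to 0.06 (Mcm4 and Mcm7) on the log2 scale. Mcm2 was called lower with library size alone and without Parental 1 or IRF2_KO 2 (adjusted p from 0.0231 to 1 over all alternatives), and Mcm3 with library size alone (0.0389 to 1), as were Ccne2 and Ube2c (0.0445 to 1 and 0.0382 to 1).

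Gins2 (chr8:120581266-120589075), a subunit of the GINS complex that activates the MCM helicase, had 50.9, 52.7 and 57.3 CPM in the Parental libraries and 40.4, 45.8 and 45.2 CPM in the IRF2_KO libraries. All IRF2_KO values lay below all Parental values, and at 18.4% the fall was the largest among the 42 genes (log2 fold change -0.29, SE 0.06, edgeR adjusted p = 0.000609). Exons of Gins2 share 67.3% of their bases with Gse1 on the opposite strand. Gse1 itself was higher in IRF2_KO (138 ± 6.40 CPM in Parental and 152 ± 3.11 CPM in IRF2_KO; log2 fold change 0.14, adjusted p = 0.0144). Pcna, the sliding clamp that tethers DNA polymerases, had 39.5, 40.4 and 38.6 CPM in the Parental libraries and 29.9, 39.7 and 35.6 CPM in the IRF2_KO libraries. Its groups overlapped through IRF2_KO 2 and it did not pass (log2 fold change -0.17, SE 0.08, edgeR adjusted p = 0.0709). Without IRF2_KO 2 it passed (-0.27, adjusted p = 0.00214), as it did with library size alone (-0.20, 0.0325) and with no filter (-0.18, 0.00941). With the length offsets it did not (-0.13, 0.111), and over all alternatives the adjusted p ran from 0.00214 to 1.

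Deoxynucleotide synthesis was split as well. Ribonucleotide reductase joins a large subunit, encoded by Rrm1, with a small one, encoded by Rrm2, whose level rises in S phase. Rrm2 (chr12:24708254-24714146) had 392, 398 and 399.8 CPM in the Parental libraries and 497, 522 and 519 CPM in the IRF2_KO libraries, and was 1.29-fold higher without overlap (log2 fold change 0.37, SE 0.04, edgeR adjusted p = 5.04e-07). Rrm1 had 559, 538 and 531 CPM in the Parental libraries and 567, 528 and 537 CPM in the IRF2_KO libraries. Its groups overlapped, and its 95% interval was -0.08 to 0.09. Tyms (chr5:30038546-30073645), thymidylate synthase, which makes the thymidine nucleotide, had 56.5, 55.3 and 56.8 CPM in the Parental libraries and 45.5, 49.9 and 46.1 CPM in the IRF2_KO libraries. It was 16.1% lower in IRF2_KO, again without overlap (log2 fold change -0.25, SE 0.05, edgeR adjusted p = 0.000488).

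Among the G2/M genes, the core mitotic engine did not pass the test apart from Ccnb1. Cdk1 had 258, 252 and 251 CPM in the Parental libraries and 247, 252 and 248 CPM in the IRF2_KO libraries, with overlapping groups (95% interval -0.11 to 0.06). Ccna2 and Ccnb2, cyclins that partner CDK1, had log2 fold changes of -0.07 (-0.17 to 0.03) and -0.01 (-0.10 to 0.08), also with overlapping groups. Ccnb1 (chr13:100778739-100786486), the cyclin that takes CDK1 into mitosis, had 42.4, 40.8 and 36.5 CPM in the Parental libraries and 33.2, 37.2 and 35.0 CPM in the IRF2_KO libraries. The groups overlapped, and its call (log2 fold change -0.18, SE 0.06, edgeR adjusted p = 0.0246) was lost without Parental 1, Parental 2, IRF2_KO 1 or IRF2_KO 3. Foxm1 (chr6:128362994-128375886), which activates transcription of mitotic genes, had 86.5, 89.9 and 85.1 CPM in the Parental libraries and 76.9, 77.9 and 75.9 CPM in the IRF2_KO libraries. It was 11.8% lower without overlap (log2 fold change -0.18, SE 0.04, edgeR adjusted p = 0.00288).

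The spindle checkpoint held the clearest split of this phase. Bub1 (chr2:127800197-127831859), the kinase that marks centromeres and recruits checkpoint proteins, had 187, 175 and 173 CPM in the Parental libraries and 265, 243 and 249.6 CPM in the IRF2_KO libraries. Its groups were far apart, and it was 1.42-fold higher (log2 fold change 0.50, SE 0.05, edgeR adjusted p = 7.99e-08). Bub1b (chr2:118598202-118641592), which encodes BUBR1, a part of the complex that inhibits CDC20, had 141, 136 and 139.9 CPM in the Parental libraries and 116, 117 and 118 CPM in the IRF2_KO libraries. It was 15.7% lower, with less spread within groups than between them (log2 fold change -0.25, SE 0.04, edgeR adjusted p = 0.000101). Cdc20 and Ube2c, which act on and with the anaphase-promoting complex, had log2 fold changes of -0.13 (-0.26 to -0.01) and -0.08 (-0.17 to 0.01) and were not called. Cdc20 was called without IRF2_KO 2 (-0.20, adjusted p = 0.00288), with library size alone (-0.16, 0.0298) and with no filter (-0.14, 0.0159). It was not called with the length offsets (-0.10, 0.121), and over all alternatives the adjusted p ran from 0.00288 to 1.

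Of the kinases, motors and passenger proteins of the spindle, Birc5 and Kif20a were called. Birc5 (chr11:117849237-117855743), survivin of the chromosomal passenger complex, had 109, 115 and 118 CPM in the Parental libraries and 102, 108 and 99.2 CPM in the IRF2_KO libraries. It was 9.90% lower without overlap (log2 fold change -0.15, SE 0.05, edgeR adjusted p = 0.0155), a call lost without Parental 2, Parental 3 or IRF2_KO 3. Its partner Aurkb, the kinase of that complex, did not pass (log2 fold change 0.03, 95% interval -0.07 to 0.13). Kif20a (chr18:34624624-34633277), a kinesin of cytokinesis, had 214, 216 and 219 CPM in the Parental libraries and 193, 201 and 197 CPM in the IRF2_KO libraries and was 8.98% lower (log2 fold change -0.14, SE 0.04, edgeR adjusted p = 0.00995), a call lost without Parental 3. Its exons share 29.3% of their bases with Cdc23 on the opposite strand, which was lower too (log2 fold change -0.12, adjusted p = 0.0198). Aurka, Plk1 and Kif11 had log2 fold changes of -0.11, -0.10 and -0.06 and were not called. Aurka was called lower with library size alone, limma-voom or no filter and without Parental 1 or IRF2_KO 2 (adjusted p from 0.014 to 1 over all alternatives). Plk1 was called lower with library size alone and without Parental 1 or IRF2_KO 2 (adjusted p from 0.0221 to 1). The centromere genes Cenpa (0.01) and Cenpe (0.11) were not called.

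The proliferation markers Mki67 and Top2a were not called either. Mki67 (chr7:135689784-135716450), which coats mitotic chromosomes, had 368, 389.7 and 356 CPM in the Parental libraries and 438, 344 and 462 CPM in the IRF2_KO libraries. IRF2_KO 2 lay below all Parental libraries and the other IRF2_KO libraries above them (log2 fold change 0.16, SE 0.09, edgeR adjusted p = 0.195). Without IRF2_KO 2 the gene was called higher (0.28, adjusted p = 2.42e-05), as it was with no filter (0.15, 0.0117). With the length offsets it was not (0.13, 0.0614), and over all alternatives the adjusted p ran from 2.42e-05 to 1. Top2a, the topoisomerase that untangles sister chromatids, had 618, 595 and 580.2 CPM in the Parental libraries and 675, 596 and 640.1 CPM in the IRF2_KO libraries, with overlapping groups (log2 fold change 0.09, 95% interval -0.01 to 0.19). Without IRF2_KO 2, Top2a and Cenpe were called higher as well (0.14 and 0.19, adjusted p = 0.0164 and 0.00664), but not with the length offsets (adjusted p = 0.0536 and 0.165) or under any other alternative, whose values reached 1. Over the 27 genes that were not called, 20 had an estimate below 0 and 7 above, and apart from Ccnd1 their 95% intervals lay between -0.33 and 0.37 on the log2 scale.

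Other genes of the same pathways were read from lists chosen by function. CDK inhibitors and pocket proteins, which restrain the cyclin kinases and E2F, were called higher in 5 of 9 tested members (55.6%) and lower in 2 (22.2%), beside 23.6% of all genes in each direction, with a median log2 fold change of 0.31 beside -0.01 for all tested genes. Cdkn1a, which encodes p21, had 251 ± 7.40 CPM in Parental and 474 ± 16.0 CPM in IRF2_KO (log2 fold change 0.91, SE 0.04, edgeR adjusted p = 5.78e-12). Cdkn2a, which encodes p16 and p19ARF, went the other way, with 43.2 ± 1.86 CPM in Parental and 12.6 ± 1.06 CPM in IRF2_KO (log2 fold change -1.78, SE 0.07, edgeR adjusted p = 4.66e-13). The count of lower members was 1 under DESeq2, with the length offsets and without any 1 library except IRF2_KO 3. Cdkn1c was too low to test.

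Of the other E2F, DP and MuvB factors, 2 of 14 were higher (14.3%) and 5 lower (35.7%), beside 23.6% of all genes in each direction (median log2 fold change -0.07). The higher ones were E2f2, an activator (7.97 ± 0.0811 CPM in Parental and 13.0 ± 0.344 CPM in IRF2_KO; log2 fold change 0.71), and E2f7, the closest relative of the repressor E2f8 (8.03 ± 1.07 CPM in Parental and 14.1 ± 0.457 CPM in IRF2_KO; log2 fold change 0.82). E2f7 and E2f8 thus differed in direction. The lower ones of this list had log2 fold changes of -0.40 (Mybl2, which encodes B-MYB), -0.32 (E2f3), -0.19 (Tfdp1), -0.17 (E2f4) and -0.14 (Rbbp4). Lower members numbered 3 without IRF2_KO 3. Of the Myc family and Myb, 2 of 3 tested were lower (66.7%, beside 23.6% of all genes). These were Mycn (log2 fold change -4.23) and Myb (-0.44). None was higher by edgeR, DESeq2 or at an unadjusted p under 0.05 (0 of 3). Mycl was too low to test, with no read in IRF2_KO and at most 2 in a Parental library.

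Replicative polymerases and fork proteins were lower in 11 of 25 (44.0%, beside 23.6% of all genes) and higher in 0 by edgeR, 1 at an unadjusted p under 0.05 and 0 by DESeq2. Their median log2 fold change was -0.08. Leaving out single libraries left 7 to 10 lower, the fewest without Parental 2 or IRF2_KO 3. The lower count was 5 at an adjusted p under 0.01. It was 0 with glmTreat against a 1.2-fold change, a test that asks for a larger change. Without IRF2_KO 1, or with the length offsets, 1 was higher. Fen1, the flap endonuclease of Okazaki fragments, had 251 ± 7.39 CPM in Parental and 209 ± 8.33 CPM in IRF2_KO (log2 fold change -0.27, SE 0.04, edgeR adjusted p = 6.57e-05), and Pold2, a subunit of polymerase delta, had 118 ± 7.01 CPM in Parental and 94.7 ± 7.20 CPM in IRF2_KO (log2 fold change -0.32, SE 0.06, edgeR adjusted p = 0.000163). Of the other origin and helicase factors 4 of 16 were lower (25.0%) and 1 higher (6.25%), beside 23.6% of all genes in each direction, with Orc2, a subunit of the origin recognition complex, at a log2 fold change of -0.39 (SE 0.06) and Mcm10 at -0.13 (SE 0.04). Single libraries decided those counts: 1 to 3 were lower and 0 to 1 higher when each was left out, the fewest lower (1) without Parental 3, and 2 without IRF2_KO 2 or IRF2_KO 3.

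For deoxynucleotide supply, 2 of 9 were higher (22.2%) and 3 lower (33.3%), beside 23.6% of all genes in each direction. Samhd1, which breaks deoxynucleotides down and is induced by interferon in many cells, had 86.0 ± 1.63 CPM in Parental and 168 ± 2.95 CPM in IRF2_KO (log2 fold change 0.96, SE 0.04, edgeR adjusted p = 3.57e-12). Dtymk, which phosphorylates the product of thymidylate synthase, had 196 ± 3.88 CPM in Parental and 165 ± 3.99 CPM in IRF2_KO (log2 fold change -0.24, SE 0.04, edgeR adjusted p = 0.00011). Tyms and Dtymk were therefore both lower, while Rrm2 and Samhd1 were both higher. Of the other called members, Tk1, which encodes thymidine kinase, was higher (log2 fold change 0.24, SE 0.06, edgeR adjusted p = 0.0046). Dctpp1 (-0.34) and Shmt1 (-0.23) were lower.

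Condensins and cohesin, the rings that shape chromosomes and hold sisters together, were higher in 5 of 12 (41.7%, beside 23.6% of all genes) and lower in 0 by edgeR, DESeq2 or an unadjusted p under 0.05. Their median log2 fold change was 0.09. Smc4 and Ncapd3 each had a log2 fold change of 0.23 (SE 0.06 and 0.05; edgeR adjusted p = 0.00243 and 0.000482). The higher count was 3 without Parental 2 or Parental 3, 6 without Parental 1, and 5 with the length offsets. At an adjusted p under 0.01 it was 4, and with glmTreat against a 1.2-fold change it was 0. Without IRF2_KO 1, 2 were lower. Other mitotic kinesins and cytokinesis genes were higher in 2 of 14 (14.3%, beside 23.6% of all genes). These were Anln and Kif15 (log2 fold changes 0.13 and 0.13). Lower calls numbered 0 by edgeR, DESeq2 or an unadjusted p under 0.05. That count of 2 was 0 without Parental 2, Parental 3, IRF2_KO 1 or IRF2_KO 3 and with library size alone, 4 without Parental 1, and 5 with the length offsets.

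Kinetochore and passenger genes were higher in 1 of 14 (7.14%) and lower in 3 (21.4%), beside 23.6% of all genes in each direction, and higher in 0 to 2 when single libraries were left out. Spc24 and Knl1 were lower, at log2 fold changes of -0.23 and -0.25. Spindle checkpoint and anaphase control genes were higher in 2 of 13 (15.4%) and lower in 4 (30.8%), beside 23.6% of all genes in each direction. Pttg1, which encodes securin, had a log2 fold change of 0.20 and Mad1l1 one of -0.19. The higher count was 0 without IRF2_KO 3 or Parental 1 and 3 without IRF2_KO 1. The lower count was 1 without IRF2_KO 3 and 2 without IRF2_KO 1 or any 1 Parental library. In the list of CDC25, WEE1 and replication checkpoint genes, 4 of 9 were lower (44.4%) and 1 higher (11.1%), beside 23.6% of all genes in each direction. The phosphatase gene Cdc25b, which helps to activate CDK1, had 11.1 ± 0.507 CPM in Parental and 17.3 ± 0.554 CPM in IRF2_KO (log2 fold change 0.65, SE 0.07, edgeR adjusted p = 9.35e-07), whereas Cdc25a had a log2 fold change of -0.15. Lower members numbered 2 without IRF2_KO 3, and higher ones 2 without IRF2_KO 1 or IRF2_KO 2.

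**Figure D5:**
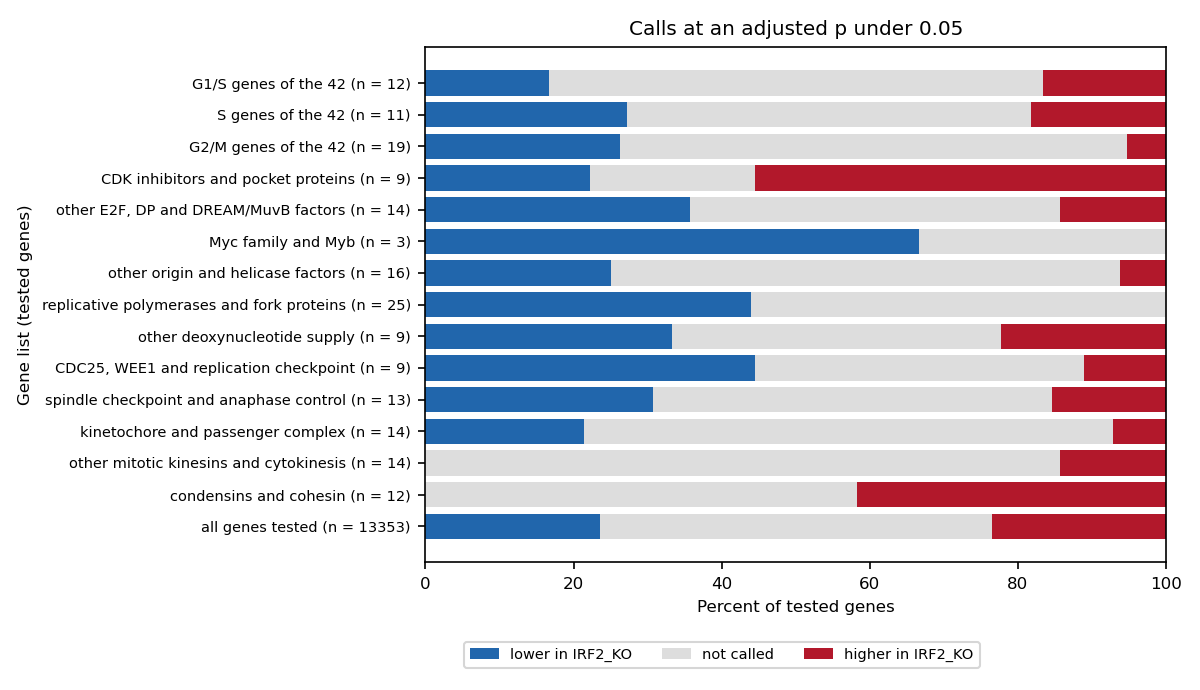
Percent of tested genes called lower, not called and called higher in IRF2_KO (x axis) for the 3 phases of the 42 genes, 11 other lists and all tested genes. The share called lower is 44.0% for replicative polymerases and fork proteins and 23.6% for all genes, and the share called higher is 41.7% for condensins and cohesin and 23.6% for all genes.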

How the data were processed

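The submitters' processing notes name GSNAP and the mouse build GRCm38; the sources used here give no version, annotation or strand setting. Per the file headers, each deposited count is the number of uniquely aligned reads in a gene model. The deposited RPKM values are adjusted by size factors, per the file headers, and were used only for levels per length and for relative gene length. The extraction notes name a stranded total RNA kit and the molecule label polyadenylated RNA, which was not settled.

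Groups came from the group label. The labels carry no replicate number, so numbers follow record order and pair nothing. Names and positions came from RefSeq for 31049 IDs. Counts were tested in R 4.3.3 with edgeR 4.0.16: filterByExpr (13353 genes), TMM factors (0.987 to 1.02), robust quasi-likelihood test, two-sided, Benjamini-Hochberg adjustment, threshold 0.05. The SE was taken as the absolute log2 fold change over the root of the F statistic, and intervals are 95%. Lists are given by counts and medians, with no set test. Pseudogene matches used blastn 2.17.0. The test was checked on simulated data. The 42 genes and all lists were chosen with earlier results of these data known. Up to 2 called members with the smallest adjusted p were named per pathway list, and all members of the myeloid progenitor list were named. The other called members of the deoxynucleotide list and of the E2F, DP and MuvB list were named after their values were seen. Irf2 and the genes that overlap a member were also named. Among the alternatives tried, scaling used the RLE method, the upper quartile or library size alone. Other tests were DESeq2 1.42.0, limma-voom (limma 3.58.1) and glmTreat against a 1.2-fold change. Filters were none, or 1 CPM in at least 3 libraries, and a threshold of 0.01 was also applied. Each library was left out once. Offsets for each library's length trend were added after the data were seen.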

Additional observations from a re-analysis of the deposited data

How the results depend on the processing

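Over 672 recomputed values of the 42 genes (16 alternatives each), 621 kept their side of the threshold, 29 gained a call, 22 lost one, and no called value changed sign. The 15 called genes were all called again with RLE or upper-quartile factors, library size alone, DESeq2, limma-voom, no filter, the 1 CPM filter and the length offsets. With glmTreat against 1.2-fold, 3 of the 42 were higher (Ccnd2, Rrm2 and Bub1, 1 each in G1/S, S and G2/M), 0 were lower (0 also at an unadjusted p under 0.05, against 10 by DESeq2, and 0 in each phase), and 1471 and 869 of all genes were higher and lower. That test asks for a larger change, by its construction. With library size alone 19 of the 42 were lower, 4 in G1/S, 6 in S and 9 in G2/M. With no filter 2 G2/M genes were higher, and at an adjusted p under 0.01, 3 G2/M genes were lower. The G1/S genes called higher numbered 3 with the length offsets. Without filter, lower calls numbered 14. The number of all genes called is given here for glmTreat alone, so the other counts are not set against it. The cause of the other shifts was not tested.

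Leaving out each library in turn gave 5 to 8 higher and 8 to 16 lower among the 42. By phase, the lower counts were 3 to 5 in S and 3 to 8 in G2/M, and 1 to 4 G2/M genes were higher. The largest counts came without IRF2_KO 2. The share of all genes called in these fits is not given here, so the counts are not set against it. No paired analysis was possible because the labels carry no replicate numbers. What depth limits was not tested; Ccnd1, near 2 CPM, had the widest interval of the 42.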
